A study of Mus musculus with 6 samples.

Results

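The homeostatic microglia identity genes described here are 9 genes by which resting microglia of the adult brain are recognised: Cx3cr1, P2ry12, P2ry13, Tmem119, Csf1r, Sall1, Gpr34, Siglech and Selplg. They are a list of named genes, and all 9 were found among the 16703 genes measured by RNA-Seq of the mouse hippocampus. The comparison is of 3 aged mice, 20 months old, with 3 young mice, 3 months old in the labels. All were male C57BL/6, an inbred laboratory strain with no transgene or treatment, and each mouse gave 1 library of total RNA enriched for polyadenylated RNA. The methods state that the mice were picked after a qPCR assay and do not name the criterion, so they are not known to be unselected. The paper reports qRT-PCR of Neat1, C4b, Trem2 and Cldn2 in hippocampal RNA of these ages. It does not state that these were the genes of the selection. Trem2 and Cldn2 are in gene lists used below, and the effect of such a selection on the 9 genes was not tested.

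Microglia are the resident macrophages of the brain parenchyma. In the undisturbed brain they carry a set of surface receptors with which they sense neurons, nucleotides and growth factors, and their survival depends on signalling through Csf1r. TGF-beta signalling and transcription factors such as PU.1, IRF8, SALL1 and MEF2 family members maintain this state. Expression of several of these genes, P2ry12 and Tmem119 among them, is known to fall when microglia become activated in models of disease.

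Values are CPM, counts scaled to the total of each library, turned back from the deposited log2 CPM. The deposited values had been adjusted by the authors, with 1 direction of variation among the 6 libraries removed, so they are not raw reads and the sequencing depth behind them is unknown. The totals of the adjusted counts were 15904809 to 17548247 in the aged mice and 15238190 to 15393656 in the young mice. The SDs and the statements on overlap describe these adjusted values and not the spread among mice before the removal. Aged replicate 2 and aged replicate 3 were closer to each other than counting noise would leave separate libraries. Their variance was 0.562 times that noise, where every other pair had 1.42 to 3.86. The removed direction had its largest weights on these 2 libraries, with opposite signs (0.524 and -0.748), so its removal took out part of their difference. Whether this accounts for their closeness was not tested. Both were kept as separate samples. RNA of whole tissue was measured, so fewer or more microglia and less or more RNA per cell cannot be told apart.

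Upstream sequences are shown so that the letters before the starts of these genes can be read beside motifs of factors known in microglia. RefSeq windows (build GRCm38.p6) were matched by symbol for 5 of the 9 genes, and Tmem119, Csf1r, Gpr34 and Selplg are named only. Each run is the 250 bases before an annotated start, 5′ to 3′ on the strand of the gene. Capitals mark every match, on either strand, to 5 motifs. They include the PU box GAGGAA and the ETS core GGAAGT, both of the kind that PU.1 binds, and the RUNX core TGTGGT. The others are the ETS and IRF composite (GGAA, any 2 bases and GAAA) and a loose MEF2 pattern (CTA, any 4 bases and TAG). The loose pattern allows G or C in its middle, where the MEF2 consensus has A or T. The PU box, the ETS core and the composite share the letters GGAA and can overlap. For Sall1, which has 3 windows, the one that holds a match is given.
Cx3cr1, chr9:120068297-120068546, minus strand: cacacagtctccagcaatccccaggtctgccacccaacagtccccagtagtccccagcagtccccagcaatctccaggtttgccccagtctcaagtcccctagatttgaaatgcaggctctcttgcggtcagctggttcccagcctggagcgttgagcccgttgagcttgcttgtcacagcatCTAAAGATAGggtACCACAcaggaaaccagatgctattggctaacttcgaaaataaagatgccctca
Siglech, chr7:55767934-55768183, plus strand: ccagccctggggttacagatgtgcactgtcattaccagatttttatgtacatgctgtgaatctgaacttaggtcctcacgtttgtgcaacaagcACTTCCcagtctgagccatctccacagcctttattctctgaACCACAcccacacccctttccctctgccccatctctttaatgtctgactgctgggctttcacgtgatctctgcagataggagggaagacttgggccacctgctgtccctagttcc
Sall1, chr8:89042863-89043112, minus strand: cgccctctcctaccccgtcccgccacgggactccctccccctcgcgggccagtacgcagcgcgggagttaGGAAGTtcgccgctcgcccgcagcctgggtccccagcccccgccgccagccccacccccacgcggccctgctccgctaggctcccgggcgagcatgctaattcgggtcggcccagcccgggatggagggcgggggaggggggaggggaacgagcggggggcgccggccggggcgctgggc
P2ry12, chr3:59262986-59263235, minus strand: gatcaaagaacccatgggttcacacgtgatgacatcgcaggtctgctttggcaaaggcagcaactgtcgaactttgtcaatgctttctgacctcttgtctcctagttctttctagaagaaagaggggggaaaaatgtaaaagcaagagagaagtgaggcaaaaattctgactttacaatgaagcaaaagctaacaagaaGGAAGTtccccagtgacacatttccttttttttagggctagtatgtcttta
P2ry13, chr3:59210883-59211132, minus strand: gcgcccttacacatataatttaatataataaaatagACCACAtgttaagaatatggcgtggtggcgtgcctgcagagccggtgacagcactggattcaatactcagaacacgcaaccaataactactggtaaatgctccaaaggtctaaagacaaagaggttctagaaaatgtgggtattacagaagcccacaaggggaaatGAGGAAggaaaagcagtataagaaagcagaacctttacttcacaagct

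Each of these 5 genes had at least 1 match in a window, as had 48.4% of all windows, and Sall1 had 3 windows in which to match. P2ry13 had a PU box 48 to 43 bases before its start, and P2ry12 had an ETS core 51 to 46 bases before its start. Siglech and Sall1 also had an ETS core. Cx3cr1 had a match to the loose MEF2 pattern 67 to 58 bases before its start, with a G among its middle bases, so it is not a full MEF2 site. A RUNX core was found for Cx3cr1, P2ry13 and Siglech. No window of the 5 genes held the ETS and IRF composite. Over all 32851 windows of this length, 23.3% held a PU box, 19.7% an ETS core, 2.3% the composite, 3.2% the loose MEF2 pattern and 14% a RUNX core. The matches are a description of letters in these windows.

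In the aged hippocampus, 3 of the 9 genes were higher than in the young hippocampus past an adjusted p of 0.05, and none was lower. They were Cx3cr1, Tmem119 and Sall1. Over all genes, 1.20% were called higher by the same test, and 131 genes of the 16703 were called lower. The test was limma on the log2 CPM with Benjamini-Hochberg adjustment over the 16703 genes. None of the 9 reached a fold change of 1.5, at which 0.377% of all genes were called higher. The log2 fold changes of the 9 genes, aged minus young, ran from 0.11 to 0.44 with a median of 0.30, beside a median of 0.0049 over all genes. In 7 of the 9, every aged library was above every young library, as it was in 14.5% of all genes. An unadjusted p under 0.05, in either direction, was found for 7 of the 9 and for 14.9% of all genes.

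**Figure D1:**
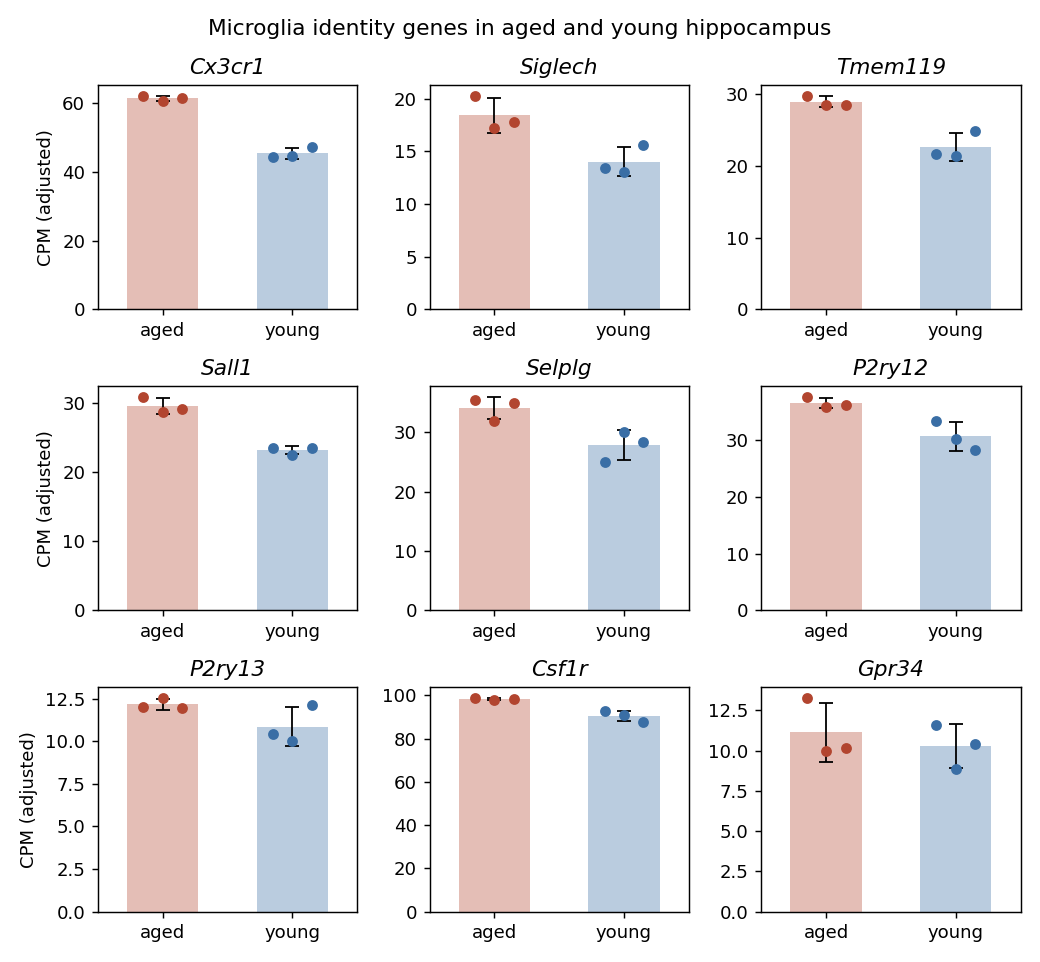
CPM (adjusted values, linear axis from 0) of the 9 microglia identity genes in aged and young hippocampus. Points are the 3 mice of each age, bars their mean and whiskers the SD. The ages do not overlap in 7 genes and overlap in P2ry13 and Gpr34.

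Cx3cr1 encodes the receptor of the neuronal chemokine fractalkine. It had 62.2, 60.7 and 61.5 CPM in the aged mice, against 44.4, 44.6 and 47.3 CPM in the young mice. All 3 aged mice lay within a narrow band well above the young ones. The means were 61.5 ± 0.747 CPM in aged and 45.4 ± 1.60 CPM in young mice (SD, n = 3 each), a log2 fold change of 0.44 (standard error 0.061, 95% interval 0.31 to 0.56, limma adjusted p = 0.00135). With 1 library left out in turn the log2 fold change of Cx3cr1 was 0.42 to 0.47 (limma adjusted p from 0.00169 to 0.0532, the highest without aged replicate 3). With age as the only term the call of Cx3cr1 was held in all 6 such fits. The exons of Cx3cr1 share 78 bases with Gm33858 on the opposite strand, for which no value was analysed here.

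P2ry12 and P2ry13 are receptors of ADP that couple to Gi proteins, and P2ry12 drives the movement of microglial processes towards sites of injury. P2ry12 had 37.5, 35.7 and 36.1 CPM in the aged mice, against 33.3, 30.1 and 28.3 CPM in the young mice. The groups did not overlap, but the difference did not pass the test (log2 fold change 0.26, 95% interval 0.09 to 0.42, limma adjusted p = 0.125). P2ry13 had 12.01, 12.54 and 11.97 CPM in the aged mice, against 10.43, 9.99 and 12.15 CPM in the young mice. Young replicate 3 lay within the range of the aged mice, and the interval of the log2 fold change of P2ry13 reached from -0.09 to 0.42 around 0.17 (limma adjusted p = 0.567). The P2ry12 and P2ry13 genes lie side by side on 1 strand with none between them, inside Med12l on the opposite strand. Med12l had a log2 fold change of -0.03 (limma adjusted p = 0.902), and it shares 9 exon bases with P2ry12 and 0 with P2ry13. The library kit keeps the strand, and whether the counting used it is not given in the sources used here.

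Gpr34, a receptor of lysophosphatidylserine, had 13.3, 9.97 and 10.2 CPM in the aged mice, against 11.6, 8.88 and 10.4 CPM in the young mice. Aged replicate 1 was the highest library and the other 2 aged mice lay within the young range. The log2 fold change of Gpr34 was 0.11 (95% interval -0.20 to 0.42, limma adjusted p = 0.790), and it was -0.04 without aged replicate 1 and 0.56 without aged replicate 3. In the same 2 fits on age alone, without the removed direction as a term, it was -0.02 and 0.17. Gpr34 lies within Cask on the opposite strand, with 0 shared exon bases, and Cask had a log2 fold change of -0.20 (limma adjusted p = 0.124).

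Csf1r, the receptor of the growth factors Csf1 and Il34 on which microglia depend, had the highest level of the 9 genes. It had 98.7, 97.8 and 98.6 CPM in the aged mice, against 92.7, 91.0 and 87.8 CPM in the young mice. The groups did not overlap and the difference was small. The log2 fold change of Csf1r was 0.12 (95% interval 0.01 to 0.23, limma adjusted p = 0.276). Its exons share 873 bases with those of Hmgxb3 on the opposite strand, which had a log2 fold change of 0.03 (limma adjusted p = 0.855), so the value of Csf1r is uncertain if strand was not used.

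Tmem119, a membrane protein used as a marker that separates microglia from other macrophages, had 29.8, 28.4 and 28.5 CPM in the aged mice, against 21.7, 21.4 and 24.8 CPM in the young mice. Every aged mouse was above every young mouse, and young replicate 3 was the closest. The means were 28.9 ± 0.767 CPM in aged and 22.6 ± 1.92 CPM in young mice (SD, n = 3 each), a log2 fold change of 0.36 (standard error 0.086, limma adjusted p = 0.0453). The call of Tmem119 was held without young replicate 3 (limma adjusted p = 0.0226) and was lost without any other single library (adjusted p from 0.0994 to 0.21, log2 fold changes from 0.31 to 0.46). With age as the only term it was again held only without young replicate 3.

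Siglech encodes a member of the Siglec family of lectins that signals through the adaptor Tyrobp. It had 20.3, 17.2 and 17.8 CPM in the aged mice, against 13.5, 13.1 and 15.6 CPM in the young mice. The groups did not overlap. Its log2 fold change of 0.39 was the next in size after that of Cx3cr1 and did not pass the test (standard error 0.110, 95% interval 0.16 to 0.62, limma adjusted p = 0.0902). Selplg, the ligand of P-selectin, had 35.5, 31.9 and 34.9 CPM in the aged mice, against 25.0, 30.0 and 28.4 CPM in the young mice. The lowest aged mouse was just above the highest young mouse, and the log2 fold change of Selplg was 0.30 (95% interval 0.11 to 0.48, limma adjusted p = 0.10). Selplg and Tmem119 are neighbours on 1 strand with 1 gene between them.

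Sall1 is the only transcription factor among the 9, and it restricts microglia to their identity. It had 30.9, 28.7 and 29.2 CPM in the aged mice, against 23.5, 22.5 and 23.6 CPM in the young mice. Both ages were tight and clearly apart. The means were 29.6 ± 1.18 CPM in aged and 23.2 ± 0.582 CPM in young mice (SD, n = 3 each), a log2 fold change of 0.35 (standard error 0.079, limma adjusted p = 0.0346). With any 1 library left out the log2 fold change of Sall1 was 0.31 to 0.45 and the call was lost (limma adjusted p from 0.0558 to 0.184), but with age as the only term it was held in 3 of the 6 such fits.

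**Figure D2:**
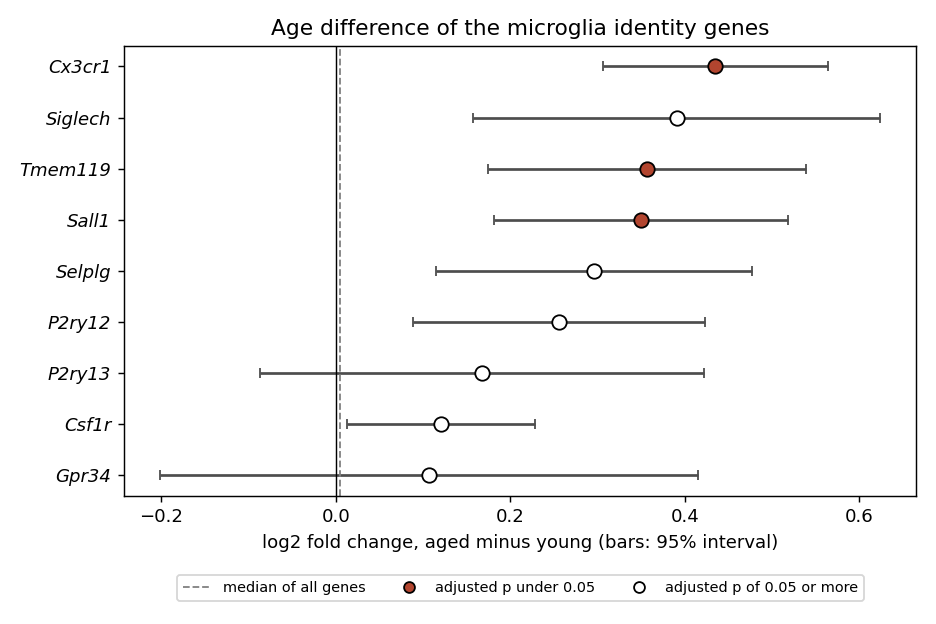
Log2 fold change, aged minus young, of the 9 genes with 95% intervals from limma, ordered by size. Filled points (Cx3cr1, Tmem119 and Sall1) have an adjusted p under 0.05, and the dashed line is the median of all genes. The intervals of P2ry13 and Gpr34 include 0.

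Levels were set side by side per kilobase of exon, with exon lengths from an annotation of another build than that of the values. In the aged mice the order was Csf1r (17.0 CPM per kb), P2ry12 (14.3), Cx3cr1 (13.6), Tmem119 (12.5), Selplg (7.98), Sall1 (5.62), Siglech (5.45), Gpr34 (5.33) and P2ry13 (4.81). The first 5 were each above the next in every aged library, and neighbours among the last 4 overlapped. In the young mice the order was Csf1r (15.7 CPM per kb), P2ry12 (12.01), Cx3cr1 (10.1), Tmem119 (9.77), Selplg (6.50), Gpr34 (4.93), Sall1 (4.41), P2ry13 (4.30) and Siglech (4.15). There Cx3cr1 and Tmem119 overlapped as well.

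Ratios between the genes were set beside each other within each library. The ratio of Cx3cr1 to Csf1r was 0.630, 0.620 and 0.624 in the aged mice, against 0.480, 0.490 and 0.539 in the young mice. The ratios of Tmem119, Sall1 and P2ry12 to Csf1r were also higher in every aged than in every young library, and those of P2ry13, Gpr34, Siglech and Selplg overlapped. An exact two-sided permutation test of 3 against 3 mice cannot give less than 0.1, which is its value for the ratio of Cx3cr1 to Csf1r. The ratio of Cx3cr1 to P2ry12 was 1.66, 1.70 and 1.70 in the aged mice, against 1.33, 1.48 and 1.67 in the young mice, and overlapped.

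Over the 6 libraries, which share the age difference and the removed direction, the log2 CPM of each gene was set beside the mean of the other 8, each scaled to the same spread. Pearson's r was 0.996 for Sall1, 0.969 for Cx3cr1, 0.956 for Siglech, 0.955 for Tmem119, 0.838 for Csf1r, 0.808 for P2ry12, 0.778 for Selplg, 0.686 for P2ry13 and 0.418 for Gpr34. Among 15437 other genes of at least 1 CPM, those most like the mean of the 9 were Mt2 (r = 0.998), Lats2 (0.998), Rpl21 (0.998), Pon2 (0.998) and Snn (0.997). An r of at least 0.9 was found for 690 genes, and these correlations are descriptions.

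Genes that act with the 9 were read from a list of 14 ligands, partners and effectors, of which 2 were called higher and 0 lower. Tyrobp, the adaptor of Siglech, averaged 15.9 CPM in aged and 10.5 CPM in young mice (log2 fold change 0.59, limma adjusted p = 0.0111), and its call was lost without aged replicate 2, aged replicate 3 or young replicate 1 (adjusted p = 0.088, 0.408 and 0.0795 for Tyrobp). Csf1, a ligand of Csf1r, averaged 39.7 CPM in aged and 32.0 CPM in young mice (log2 fold change 0.31, limma adjusted p = 0.0401), and with 1 library left out the call of Csf1 held only without young replicate 2 (adjusted p from 0.109 to 0.48 in the other 5 fits). With age as the only term the call of Csf1 held without young replicate 2 or young replicate 3 (limma adjusted p = 0.0277 and 0.0387). It was lost in the other such fits. It was also lost with aged replicates 2 and 3 as 1 sample, fitted on age alone (limma adjusted p = 0.0644). The other Csf1r ligand, Il34, was at -0.09 (limma adjusted p = 0.563), and Cx3cl1, which encodes fractalkine, was at -0.05 with an interval from -0.13 to 0.03 (limma adjusted p = 0.566). Gnai2, a Gi protein subunit, was at 0.17 (limma adjusted p = 0.0556), and Kcnk13, a potassium channel of microglia, at 0.24 (limma adjusted p = 0.409). The remaining values, as log2 fold changes that did not pass the test, were those of Cd44 (0.25), Pla1a (0.20), Inpp5d (0.19), Entpd1 (0.03), Abhd16a (0.02), Nt5e (-0.0027), Adam10 (-0.04) and Adam17 (-0.14).

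Among 14 transcription factors of microglia, Irf8 alone was called, at 0.65 (limma adjusted p = 0.0427). With 1 library left out the call of Irf8 held only without young replicate 2 (limma adjusted p from 0.0605 to 0.561 in the other 5 fits). With age as the only term it held without young replicate 2 or young replicate 3 (0.0256 and 0.0424) and was lost in the other such fits. It was lost under quantile normalization (0.0539). It was also lost with aged replicates 2 and 3 as 1 sample, fitted on age alone (0.0737). Smad3 was at 0.24 (limma adjusted p = 0.0505), Cebpa at 0.35 (0.0567) and Spi1, which encodes PU.1, at 0.26 (0.552). Of 15 genes of the TGF-beta pathway, 0 were called by limma in either direction, 6 had an unadjusted p under 0.05 (as had 14.9% of all genes), and the median log2 fold change of the 15 was 0.10. Of 33 other microglia identity genes, 6 were called higher and 0 lower, among them Trem2 (0.73), Lag3 (0.87), Itgb5 (0.35), Slco2b1 (0.41) and Cst3 (0.24). Over all genes, 1.20% were called higher. The median of the 33 was 0.31, close to the 0.30 of the 9 genes. In 23 of the 33 every aged library was above every young library, as it was in 14.5% of all genes. With 1 library left out, the call of Trem2 was lost without aged replicate 3, that of Lag3 without young replicate 1, and that of Itgb5 without aged replicate 1, aged replicate 3 or young replicate 1. With age as the only term the call of Itgb5 was held in those fits (limma adjusted p from 0.02 to 0.0372). That of Lag3 was still lost without young replicate 1 (limma adjusted p = 0.0503). Of 22 genes of activated microglia, 8 were called higher and 0 lower, among them Lyz2 (1.26), B2m (0.53), Apoe (0.23) and Clec7a (2.52), with a median of 0.27. Of the 22, 17 were above 0 and 5 below 0. Those below 0 were Igf1 (-0.40), Lpl (-0.08), Spp1 (-0.06), Cd63 (-0.06) and Cd9 (-0.01). Igf1 was lower in every aged than in every young library and did not pass the test (limma adjusted p = 0.266). Of the 4 called genes named, B2m and Apoe lost their calls without aged replicate 3, and Clec7a without aged replicate 1 or aged replicate 3. With age as the only term B2m, Apoe and Clec7a kept their calls in those fits (limma adjusted p from 0.00135 to 0.0466). The lists of ligands and of activated microglia share Tyrobp and Csf1. The TGF-beta list shares Smad3 with the transcription factors and Tgfbr1 with the other identity genes. In the young mice Cst3 averaged 935 CPM and Apoe 1688 CPM, against 90.5 CPM for Csf1r, the highest of the 9. Which cells of the whole tissue gave the RNA of the listed genes was not tested.

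**Figure D3:**
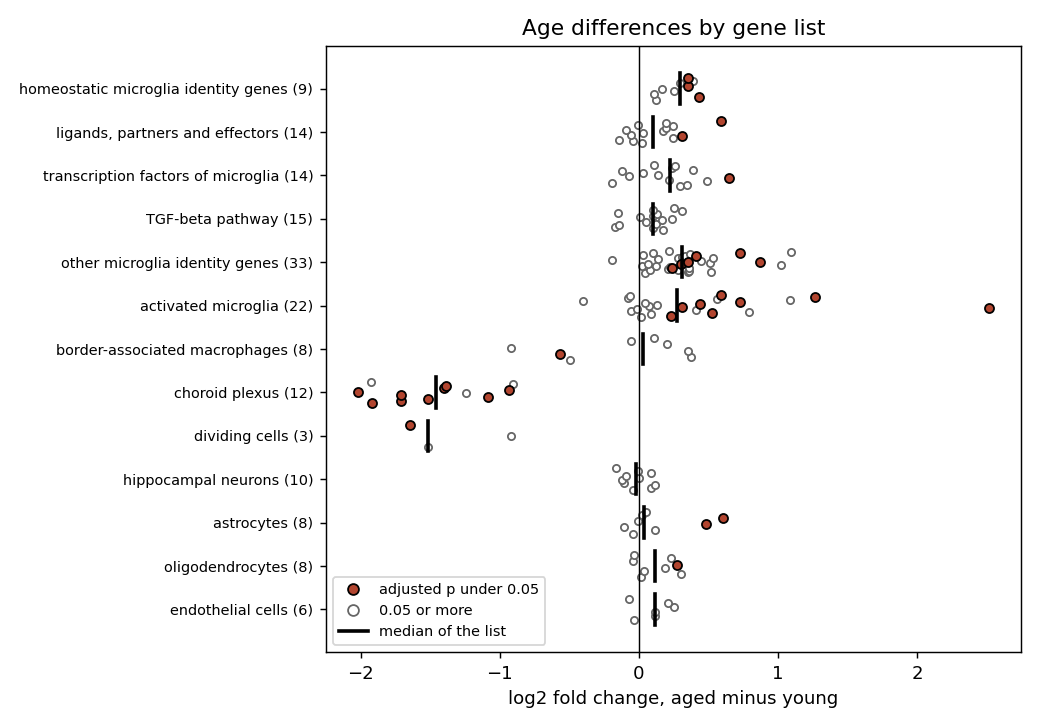
Log2 fold change, aged minus young, of every measured gene of each list with at least 3 of them (number in brackets). Filled points have a limma adjusted p under 0.05 and the black bars are medians. The 9 homeostatic genes all lie above 0, and the choroid plexus genes all lie below 0.

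Markers of other cells were measured beside the 9 genes. The summed CPM of the 9 genes was 340, 323 and 329 in the aged mice, against 276, 272 and 278 in the young mice. Cx3cr1 and Csf1r are also expressed by macrophages at the borders of the brain, and 8 of 12 markers of those cells were measured. Their sum was 32.3, 44.3 and 40.2 CPM in the aged mice, against 43.7, 43.3 and 39.6 CPM in the young mice, and overlapped. One of them, Dab2, was lower in the aged mice (-0.57, limma adjusted p = 0.00923), a call that was lost without aged replicate 2, aged replicate 3 or young replicate 1. With age as the only term the call of Dab2 was held in those fits (limma adjusted p from 0.0156 to 0.0288). Of monocyte and neutrophil markers 1 of 12 was in the table, and of lymphocyte and plasmacytoid dendritic cell markers 2 of 14. The sum of 12 choroid plexus markers was 3265, 671 and 942 CPM in the aged mice, against 3971, 3444 and 3864 CPM in the young mice. Much of it was Ttr, at 2336, 252 and 491 CPM against 2531, 2521 and 2482 CPM, which was not called (limma adjusted p = 0.0576). Of the 12, 9 were called lower, as were 131 of all 16703 genes. Kcnj13, Kl, F5 and Clic6 lost their calls with robust variance estimates (limma adjusted p from 0.338 to 0.388) and without aged replicate 3 (0.307 to 0.655). With age as the only term they held without aged replicate 3 (0.0169 to 0.0309). Aged replicate 1, the library with the most choroid plexus RNA of the aged mice, also had the highest sum of the 9 genes. The 3 measured markers of dividing cells summed to 1.13, 1.71 and 1.64 CPM in the aged mice, against 3.28, 5.68 and 3.90 CPM in the young mice. Sums of 10 neuronal markers were 4558 to 4672 CPM in aged and 4604 to 4666 CPM in young mice. The astrocyte sum was higher in every aged library (5128.9, 5143.5 and 5083.8 CPM) than in every young library (4749.4, 4614.8 and 4951.2 CPM). The oligodendrocyte sum was 7197, 6191 and 6554 CPM in aged against 6280, 6167 and 5776 CPM in young mice. The endothelial sum was 190, 206 and 198 CPM in aged against 184, 179 and 196 CPM in young mice. Both of these sums overlapped. Of 8 astrocyte markers 2 were called higher, S100b (0.61) and Gfap (0.49), and of 8 oligodendrocyte markers 1, Mobp (0.27), while of 6 endothelial markers limma called 0 (2 at an unadjusted p under 0.05). The part of these cell types in the differences of the 9 genes was not tested.

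**Figure D4:**
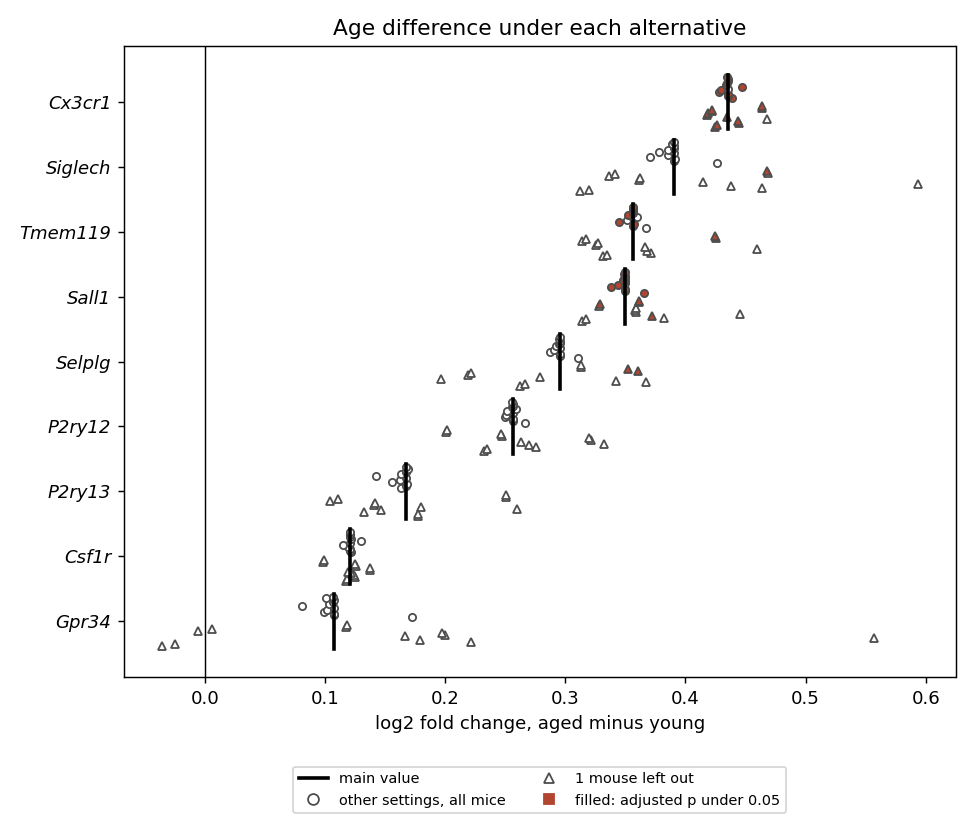
Log2 fold change, aged minus young, of the 9 genes under each alternative: circles are fits with all mice, triangles fits with 1 mouse left out, the black bars are the values given in the text, and filled symbols have an adjusted p under 0.05. Cx3cr1 stays between 0.42 and 0.47, and Gpr34 spans 0.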

How the data were processed

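Hippocampal RNA of 3 aged and 3 young mice was grouped by the sample labels. Per the submitters' processing notes the tools were Trim Galore 0.6.6, STAR 2.7.8a, R 4.05, edgeR 3.32.1, with the build mm39. The authors deposited log2 CPM for 16703 genes after a filter on low genes whose rule is not given in the sources used here, together with their own fold changes, a test score, p-values and FDR, which were not used. The log2 CPM (prior count 2) were turned back into adjusted counts, which lacked 1 direction among the 6 libraries, so no count model was run and the depth is unknown.

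The log2 CPM were fitted with limma 3.58.1 (R 4.3.3), trended variance, on age plus the removed direction, which left 3 residual beside 12.3 prior degrees of freedom. P-values were adjusted over all genes by the Benjamini-Hochberg method, with calls at 0.05. In 20 runs on simulated data of aged against young libraries over 16703 genes, recovery was 39% for genes changed 1.25-fold, 73.7% for 1.5-fold and 92% for 2-fold, while false calls made up 9.99%, more than the threshold of 0.05 allows. The changed genes were drawn only from those above a minimum mean count, and every gene was given the same dispersion. The removed factor was estimated on unchanged genes. The rates therefore need not hold for genes of low count or for the real data.

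The 9 genes and the gene lists were chosen with earlier results of these data known. Named are the 9 genes, all genes of the list of ligands, up to 4 called genes by smallest p of each other list, and the 5 genes most like the mean of the 9. Slco2b1 and Cst3, Smad3, Cebpa and Spi1, the activated microglia genes below 0, and the genes that overlap the 9, were added after their values were seen. One gene that the rule names is not reported here. Alternatives were other scalings, pseudocounts, filters, variance models, a replicate block, single libraries left out, and aged replicates 2 and 3 as 1 sample. The last of these was fitted on age alone. Leaving out libraries without the removed direction as a term was added after seeing the data. Promoter windows are from RefSeq (GRCm38.p6), and no coordinates of the RNA values are given because the builds differ. Python 3.11.15, pandas 2.3.3 and matplotlib 3.10.9 were used.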

Additional observations from a re-analysis of the deposited data

How the results depend on the processing

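Of 24 alternatives, Cx3cr1 was past the threshold in 22, Sall1 in 14, Tmem119 in 10, Selplg in 2 and Siglech in 1, and P2ry12, P2ry13, Csf1r and Gpr34 in 0. All of the 9 genes but Gpr34 stayed above 0 in all 24. With 1 variance prior for all genes, limma called 0 of the 9 (6 at an unadjusted p under 0.05), 0 of the other identity genes and 0 genes in all in each direction (1881 at an unadjusted p under 0.05). Quantile normalization and median centring left Cx3cr1 and Sall1, at shifts of the median of all genes under 0.01. A fit on age alone called 3 of the 9, and 319 genes higher and 204 lower in all. With aged replicates 2 and 3 as 1 sample, also fitted on age alone, 141 genes were higher and 86 lower. Tmem119 was then not called (adjusted p = 0.0622 from limma).

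With 1 library left out, 0 to 2 of the 9 genes were called, 0 of them without aged replicate 3 (6 at an unadjusted p under 0.05 by limma). Then 59 to 184 genes were higher and 22 to 116 lower, and 1 to 6 of the other identity genes were called. Without aged replicate 3 the direction has a correlation of 0.754 with age among the other 5 libraries. With the direction also dropped as a term, 1 of the 9 was called when aged replicate 1, aged replicate 3 or young replicate 1 was left out, at most 4 were called in the other fits, and 125, 99 and 113 genes in all were higher in those 3 fits. Lower were 61 genes without aged replicate 3 and 51 genes without young replicate 1, and 2 of the other identity genes were called without young replicate 1.

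Differences that changed sign were those of genes that were not called. Gpr34 was at -0.036 to 0.56 with 1 library left out, and at -0.025 without aged replicate 1 and the direction. Over single libraries left out, Nt5e was at -0.20 to 0.19, Abhd16a at -0.015 to 0.060, Entpd1 at -0.062 to 0.19, Pla1a at -0.049 to 0.51, Adam10 at -0.089 to 0.075, Adam17 at -0.23 to 0.037 and Cd44 at -0.025 to 0.38. With the direction dropped too, Nt5e was at 0.048, 0.19 and 0.0036 without aged replicate 1, young replicate 1 and young replicate 2, Entpd1 at -0.00014 and -0.052 without aged replicate 2 and young replicate 2, Abhd16a at -0.015 without young replicate 3 and Pla1a at -0.0083 without young replicate 2. Nt5e was at 0.0013 with voom weights. The cause was not tested in any of these.

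The replicate numbers are shared by the ages but did not pair the mice (correlations of same-numbered deviations 0.109, -0.209 and -0.415). With a replicate block 3 of the 9 genes were called, as without it. Nt5e was at 0.0084 with the replicate block, and 224 genes were lower with the replicate block and no removed direction. The 3 mice per age and the unknown depth limit all of these values.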
